A study of Rattus norvegicus with 6 samples.

Results

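The heat shock proteins and chaperones of rat organotypic hippocampal cultures were described with and without a block of GABA-A receptors. The members were every probe set with a single gene symbol, in the annotation of the array, among the Hsp70 and Hsp110 proteins (Hspa, Hsph1), the small heat shock proteins (Hspb), Hsp90, the mitochondrial chaperonin (Hspd1, Hspe1), the J-domain proteins (Dnaj), the subunits Cct2 to Cct8 of the cytosolic chaperonin, the Bag cochaperones and the heat shock factors (Hsf). They came to 119 probe sets of 31099, for 78 genes of 14218 with a symbol of their own. The largest groups were the J-domain proteins, with 63 probe sets for 39 genes, and the Hsp70 and Hsp110 proteins, with 19 probe sets for 12 genes. Hspa8, Hspa1b and Hsp90aa1 had no probe set with a single symbol and were not analysed here.

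The gabazine cultures were treated for 90 min with 20 µM gabazine, a GABA-A receptor antagonist, and the control cultures were left untreated. Both were organotypic slices of Wistar rat hippocampi, labelled postnatal day 4 and kept by the roller tube method, with no transgene or deletion. There were 3 replicas, each a pair of 1 gabazine and 1 control array, and the cultures of a pair came from the same pooled littermates and were split between the conditions. The deposited values were log2 RMA intensities of total RNA on the Affymetrix RAT2302 array, so that a difference of 1 is a doubling, and every ratio is a difference of log2 values within a replica, gabazine less control.

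Chaperones bind unfolded or partly folded proteins and hold, fold, disaggregate or pass them on for degradation. Hsp70 does this in cycles of ATP hydrolysis that J-domain proteins start and nucleotide exchange factors such as the Bag and Hsp110 proteins end, while Hsp90 takes over clients that are near their final fold and the chaperonins enclose theirs in a chamber. When unfolded proteins accumulate in the cytosol, the heat shock factor Hsf1 is released from chaperones and drives their transcription, and an accumulation in the endoplasmic reticulum acts through a separate pathway on the chaperones of that compartment. In neurons, chaperones also serve the synaptic vesicle cycle, through cysteine-string protein (Dnajc5) and auxilin (Dnajc6).

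The activity-regulated genes Fos, Fosb, Arc, Egr1, Egr2, Nr4a1, Nr4a3, Junb, Dusp1 and Srf, 10 in all, had positive ratios in all 3 pairs. Their mean ratios ran from 0.58 for Srf to 3.15 for Fosb, with a median of 2.18. The list was written with earlier results of these data known, so it is no independent check of the treatment. Of the neuronal and glial markers, Slc17a7, Gad1, Gfap, Mbp and Aif1 lay above the median of their array on all 6 arrays. Gad2 lay below it on all 6 arrays, and Grin2b, Gjb6, Itgam and Cx3cr1 lay below it on some. The arrays of pair 2 were dimmer as a whole, with array medians of 7.89 (gabazine) and 7.90 (control) against 8.63 to 8.71 on the other 4 arrays, so levels were compared only within a pair. As these are bulk samples, fewer cells of a type and less RNA per cell cannot be told apart. Some genes had exactly the same value on both arrays of a pair, which occurred in at least 1 pair for 45 members (37.8%) and for 47.4% of all probe sets. Hspb3 and the brightest probe set of Hspa12b, a distant relative of Hsp70, were tied in every pair.

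The ratios of the chaperones as a group were close to 0. The median ratio of the 119 members was 0.02, beside 0.00 over all probe sets, and its values in pairs 1, 2 and 3 were 0.00, −0.02 and 0.07. The limma test, blocked by pair and adjusted by Benjamini-Hochberg across all 31099 probe sets, called 0 members, and 0% of all probe sets in each direction. The smallest adjusted p of a member was 0.747, and that of any probe set was 0.467. At an unadjusted limma p under 0.05, 5 members were higher (background 1.84% of all probe sets) and 0 were lower (background 2.68%). In every pair, 8 members were higher, or 6.72% against 6.92% of all probe sets, and 9 were lower, or 7.56% against 9.49%. Neither share stood above its background. With 3 pairs, an exact sign-flip test reaches p = 0.25 at best. For 0 members did the 3 gabazine arrays lie wholly above or below the 3 control arrays, which 0.386% of all probe sets did.

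**Figure D1:**
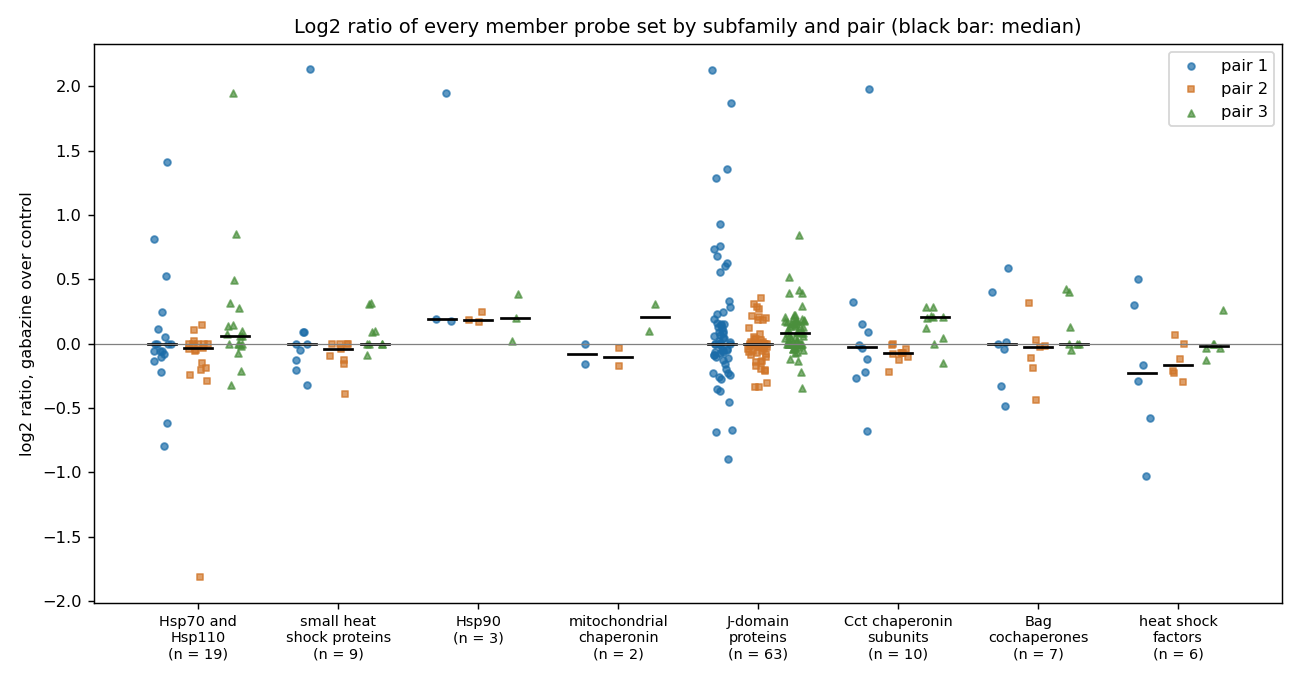
Log2 ratio of gabazine over control (y axis) for each of the 119 member probe sets, by subfamily (x axis, with the number of probe sets) and by pair (colour and marker), with the median of each pair as a black bar. Hsp90 is the group whose 3 medians sit together above 0, at 0.19, 0.18 and 0.20, while the wide points come from pair 1 and, for Hspa1a, from pairs 2 and 3.

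The Hsp90 proteins, which mature kinases, receptors and other signalling clients, had 3 member probe sets for 2 genes, Hsp90b1 and Hsp90ab1. All 3 were higher in every pair, beside 6.92% of all probe sets. Trap1, the mitochondrial Hsp90, lay outside the naming rule and was not, with ratios of −0.07, −0.04 and 0.14. Hsp90b1 (Grp94), the Hsp90 of the endoplasmic reticulum, had log2 values of 13.07, 12.04 and 12.81 in gabazine cultures, against 12.88, 11.86 and 12.61 in control cultures. Each gabazine array lay above its own control by nearly the same step, although the groups overlapped. They did so between pairs 1 and 3 too, at 12.81 in gabazine (pair 3) against 12.88 in control (pair 1). The pair ratios were 0.19, 0.18 and 0.20, their mean was 0.19 (SE 0.004, n = 3 pairs), or 1.14-fold, and the limma p was 0.00756 (adjusted p 0.747). Hsp90ab1, the constitutive cytosolic Hsp90, had values of 14.02, 12.86 and 14.14 on its brightest probe set in gabazine cultures, against 13.85, 12.69 and 13.76 in control cultures. Its ratios were 0.17, 0.17 and 0.38, with a mean of 0.24 (SE 0.07, n = 3 pairs), a limma p of 0.0345 and the same adjusted p of 0.747. Of Hsp90b1 and Hsp90ab1, neither stayed under 0.05 when the arrays were centred on their medians (limma p 0.0771 and 0.0747) or quantile normalized (0.0568 and 0.0546). The other Hsp90ab1 probe set was also higher in every pair, but unevenly, at 1.94, 0.25 and 0.02. The summed level of the oligodendrocyte markers (3 of 4 measured) was also higher in every pair, with log2 sums of 14.74, 14.15 and 13.98 in gabazine cultures and 14.46, 13.81 and 13.86 in control cultures, and its part in the Hsp90 ratios was not tested.

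The sequences before the start of these genes are shown because 2 of the 3 motifs searched occur there. In 300-base windows (RefSeq, build GRCr8, from 250 bases before to 50 bases after the start), the endoplasmic reticulum stress element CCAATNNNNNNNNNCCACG was searched on both strands, as was the palindromic cyclic AMP response element TGACGTCA. The first occurred in 21 of 27457 genes with a window (0.0765%) and in 3 of the 64 member genes with one, Hsp90b1, Hspa5 and Dnajc3. The second occurred in 549 genes (2.0%) and in 4 member genes, Hsp90ab1, Cct4, Dnajc27 and Dnajc30. Hsp90b1 held the stress element at 176 and 72 bases before the start (chr7:23012431-23012489 and chr7:23012327-23012385, minus strand), the nearer one on the opposite strand. Hspa5 held it at 43 bases (chr3:38452953-38453011, plus strand) and Dnajc3 at 133 bases (chr15:102432514-102432572, plus strand), and Hsp90ab1 held the cyclic AMP response element at 180 bases (chr9:22930223-22930270, plus strand). A match is a string of letters, not a measured site. The capitals mark the motif.
Hsp90b1, far match: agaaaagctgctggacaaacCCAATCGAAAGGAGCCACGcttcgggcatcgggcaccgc
Hsp90b1, near match: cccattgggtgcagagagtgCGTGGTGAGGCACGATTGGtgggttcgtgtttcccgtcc
Hspa5: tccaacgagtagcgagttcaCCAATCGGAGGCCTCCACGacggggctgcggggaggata
Dnajc3: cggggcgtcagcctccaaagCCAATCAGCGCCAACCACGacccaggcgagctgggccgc
Hsp90ab1: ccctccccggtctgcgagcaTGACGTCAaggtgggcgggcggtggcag

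The 3 genes with the endoplasmic reticulum stress element did not share a pattern of ratios. Hspa5 (BiP, Grp78), the Hsp70 of the endoplasmic reticulum, had values of 13.35, 12.86 and 14.14 in gabazine cultures, against 13.45, 13.10 and 13.65 in control cultures. It was lower in pairs 1 and 2 (−0.10 and −0.24) and higher in pair 3 (0.49), with a mean of 0.05 (SE 0.23, n = 3 pairs). Dnajc3 (P58IPK), a J-domain protein of the same compartment and an inhibitor of the kinase PERK, had ratios of −0.26, −0.21 and 0.09. Only Hsp90b1 among the 3 was higher in every pair.

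Hspa1a, the inducible cytosolic Hsp70, varied more between pairs than any other member. Its log2 values were 9.81, 8.82 and 11.75 in gabazine cultures, against 9.57, 10.64 and 9.80 in control cultures. The gabazine array was above its control in pair 1, far below it in pair 2 and far above it in pair 3. The ratios were 0.25, −1.81 and 1.95, and their mean of 0.13 (SE 1.09, n = 3 pairs) had a limma p of 0.897. The range of 3.76 between pairs was the 12th widest of the 31099 probe sets. The summed level of the 5 smooth muscle and pericyte markers (Acta2, Tagln, Myh11, Rgs5, Des, all 5 measured) moved in the same order, with log2 sums of 13.10, 10.73 and 13.01 in gabazine cultures and 12.63, 11.44 and 12.33 in control cultures. The pair ratios of the sum were 0.47, −0.71 and 0.69, led by Tagln, the brightest of these markers, at 0.65, −1.20 and 0.90. The other markers did not follow that order. Acta2 had 0.43, −0.25 and −0.08, and Myh11 had −0.36, −0.005 and 0.00. Rgs5 had −0.18, 0.00 and 0.01, and Des had 0.00, 0.00 and 0.21. The part of these markers in the Hspa1a values was not tested. The excitatory neuron markers (5 of 5 measured) had log2 sums of 14.34, 13.67 and 14.16 in gabazine cultures and 14.54, 12.81 and 14.10 in control cultures, so that their ratios of −0.19, 0.86 and 0.06 were highest in pair 2, and their part was not tested either. Astrocyte markers summed to ratios of −0.08, −0.01 and 0.04.

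**Figure D2:**
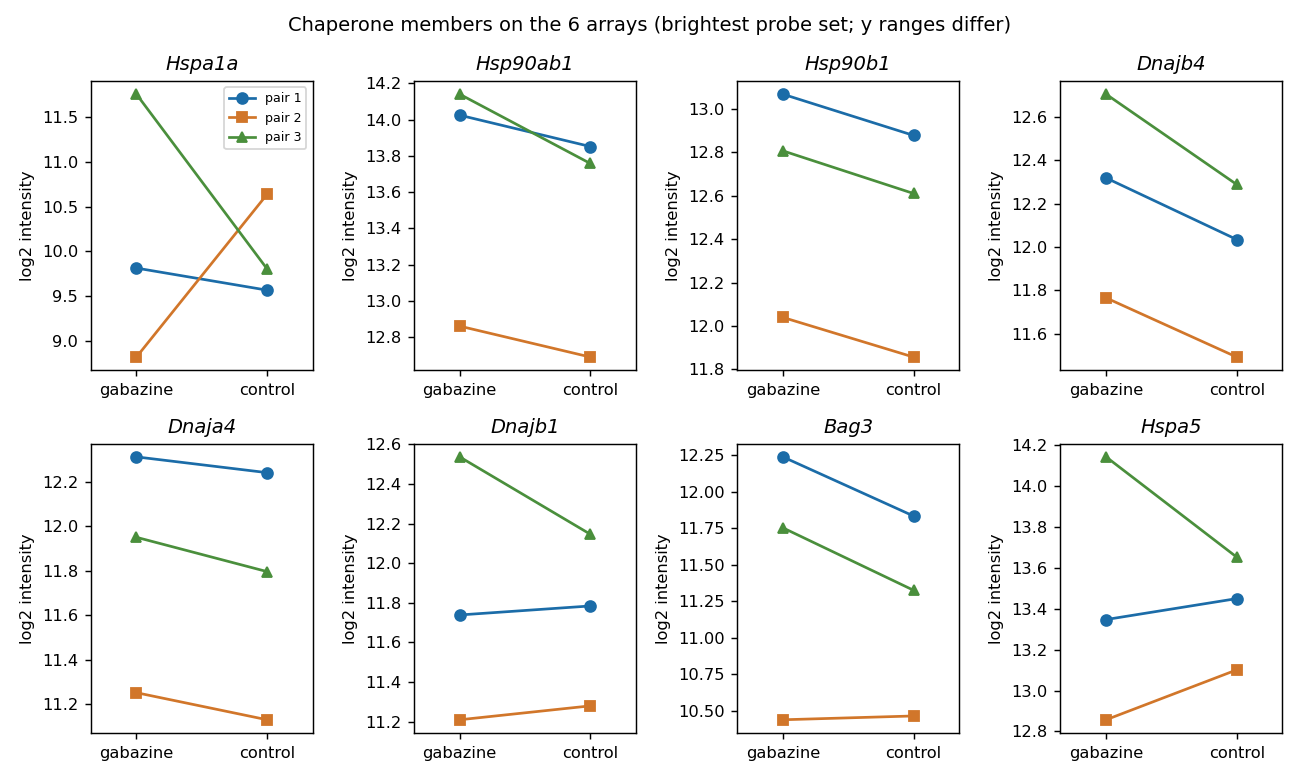
Log2 intensity (y axis, a range of its own in each panel) of 8 members on the brightest probe set of each, for the gabazine and the control array of pairs 1, 2 and 3 joined by a line. Hsp90ab1, Hsp90b1, Dnajb4 and Dnaja4 are higher in gabazine in all 3 pairs, whereas Hspa1a crosses between 8.82 and 11.75 in gabazine cultures and Hspa5 and Dnajb1 are higher in pair 3 only.

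None of the other Hsp70 and Hsp110 probe sets was higher in every pair (6.92% of all probe sets were), and the median of the 19 was 0.00. Hsph1 (Hsp110), an exchange factor for Hsp70 that takes part in disaggregation, had 12.97, 12.64 and 13.82 in gabazine cultures on its brightest probe set, against 12.92, 12.66 and 13.50 in control cultures. Its ratios were 0.05, −0.02 and 0.31 there and 0.53, −0.03 and 0.85 on the other probe set, so both were highest in pair 3 and close to 0 in pair 2. Hspa9 (mortalin), the Hsp70 of the mitochondrial matrix, had −0.08, −0.15 and 0.14 on the brightest of its 4 probe sets and mean ratios between −0.11 and 0.47 over all 4. Hspa4, another exchange factor of the Hsp110 kind, had −0.06, 0.14 and 0.10. The testis-enriched Hspa2 had the lowest mean of the group on a brightest probe set, −0.18 (SE 0.21), from ratios of −0.61, 0.00 and 0.06. Its other probe set had 0.81, −0.04 and 0.07, with a mean of 0.28.

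Hspa13 and Hspa14 were lower in every pair by small steps. They made up 10.5% of the 19 Hsp70 and Hsp110 probe sets, close to the 9.49% of all probe sets. Hspa13 (Stch), a microsomal relative of Hsp70, had 11.44, 10.72 and 11.26 in gabazine cultures, against 11.58, 10.77 and 11.33 in control cultures. Its mean ratio was −0.09 (SE 0.02, n = 3 pairs; limma p 0.0905, adjusted p 0.747). Hspa14, an Hsp70 that works at the ribosome, had 10.86, 10.39 and 11.90 in gabazine cultures, against 11.08, 10.58 and 11.92 in control cultures, with a mean ratio of −0.14 (SE 0.06; limma p 0.0971). Neither difference passed the unadjusted threshold.

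Among the J-domain proteins, 5 of 63 probe sets were higher in every pair and 3 were lower, beside 6.92% and 9.49% of all probe sets. The median was 0.03, with means from −0.35 to 0.32 on the brightest probe sets of the 39 genes. Dnajb4, a cytosolic partner of Hsp70, had the smallest p of all members. Its values were 12.32, 11.77 and 12.70 in gabazine cultures, against 12.03, 11.49 and 12.29 in control cultures. The ratios of 0.28, 0.27 and 0.42 gave a mean of 0.32 (SE 0.05, n = 3 pairs), or 1.25-fold, with a limma p of 0.00698 and an adjusted p of 0.747. Dnaja4, a cytosolic type A protein, had 12.31, 11.25 and 11.95 on its brightest probe set in gabazine cultures, against 12.24, 11.13 and 11.80 in control cultures, with a mean ratio of 0.12 (SE 0.02; limma p 0.0467, but 0.279 after median centring and 0.108 after quantile normalization). Its other probe set had 2.12, −0.02 and −0.12. Dnaja1 was higher in every pair on its dimmer probe set, by 0.15, 0.18 and 0.09 (limma p 0.0337), but not on the brightest, where the ratios were −0.09, 0.21 and 0.18. Dnaja2, the brightest J-domain gene, had 0.04, −0.02 and 0.20.

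Dnajb1, the classical Hsp40 partner of inducible Hsp70, and Dnajb5 had their increases in pair 3 or in pair 1, depending on the probe set. The brightest Dnajb1 probe set read 11.74, 11.21 and 12.54 in gabazine cultures, against 11.78, 11.28 and 12.15 in control cultures, with ratios of −0.05, −0.07 and 0.39. Its other probe set had 1.29, −0.02 and 0.52. The brightest Dnajb5 probe set read 11.74, 10.44 and 11.58 in gabazine cultures, against 11.81, 10.44 and 10.74 in control cultures, a ratio of 0.84 in pair 3 beside −0.06 and 0.00. The 2 dimmer Dnajb5 probe sets were highest in pair 1, at 1.36 and 1.87, and 1 of them was higher in every pair (1.36, 0.28 and 0.22). Pair 2 stood at or near 0 for both genes on most of their probe sets. Dnajb13, known from sperm flagella, was the remaining J-domain gene higher in every pair (0.01, 0.31 and 0.19).

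The J-domain proteins that were lower in every pair were Dnajb6, Dnajb14 and Dnajc4. Dnajb6, which suppresses the aggregation of polyglutamine proteins, had 10.61, 12.12 and 13.36 in gabazine cultures, against 11.50, 12.13 and 13.50 in control cultures. Most of its mean of −0.35 (SE 0.28, n = 3 pairs) came from pair 1, since the ratios were −0.89, −0.01 and −0.14. Dnajb14, a J-domain protein of the endoplasmic reticulum membrane, had −0.37, −0.06 and −0.34 on its brightest probe set (limma p 0.0623) and ratios between 0.00 and 0.09 on the other 2. Dnajc4 had −0.24, −0.09 and −0.07. Dnajc5, which keeps SNARE proteins folded on synaptic vesicles, had −0.09, 0.01 and −0.05 on its brightest probe set. On its other probe sets it had 0.93, −0.10 and 0.13, and 0.60, 0.00 and 0.20. Dnajc6, which recruits Hsp70 to strip clathrin from vesicles, had −0.46, 0.05 and −0.03 on its brightest probe set. Its other probe set had −0.67, 0.04 and 0.16.

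The small heat shock proteins, which hold unfolded proteins without ATP, had a median of 0.00 over 9 probe sets. In every pair 0 of them were higher and 0 lower, beside 6.92% and 9.49% of all probe sets. Of the 9, 5 were tied in at least 1 pair and could not count in either direction. Hspb1 (Hsp27) was the brightest, with 13.61, 13.48 and 13.80 in gabazine cultures, against 13.66, 13.87 and 13.71 in control cultures. It was the lowest of the group, at −0.05, −0.39 and 0.09 (mean −0.12, SE 0.14). Hspb8, which works with Bag3 in the autophagy of misfolded proteins, was the highest on its brightest probe set, with 11.66, 11.02 and 12.08 in gabazine cultures, against 11.57, 11.14 and 11.77 in control cultures. Its ratios were 0.09, −0.12 and 0.31, while its other probe set read 2.13, −0.16 and 0.10. On their brightest probe sets both genes, like Hspa1a, were lowest in pair 2 and highest in pair 3.

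Bag3, the exchange factor that Hspb8 binds, had 12.24, 10.44 and 11.75 in gabazine cultures, against 11.83, 10.47 and 11.33 in control cultures. It was higher in pairs 1 and 3 by 0.40 and 0.43 and level in pair 2 (−0.03), with a mean of 0.27 (SE 0.15; limma p 0.123), the highest of the Bag genes. Bag5, the brightest of the Bag genes, was lower in every pair, at −0.48, −0.02 and −0.05 (mean −0.18, SE 0.15), so that pair 1 carried the difference. The other Bag genes had mean ratios between −0.11 and 0.10 on their brightest probe sets.

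Hspd1, Hspe1 and the median of the cytosolic chaperonin subunits were also lowest in pair 2 and highest in pair 3, with small ratios. Among the subunits, Cct5, Cct6a and Cct8 were instead lowest in pair 1 on their brightest probe sets. Hspd1 (Hsp60), which forms the folding chamber of mitochondria, had 13.45, 13.12 and 14.05 in gabazine cultures, against 13.45, 13.15 and 13.96 in control cultures. Hspe1 (Hsp10), its lid, had 13.04, 12.76 and 13.99 in gabazine cultures, against 13.20, 12.94 and 13.67 in control cultures. The ratios were 0.00, −0.03 and 0.10 for Hspd1 and −0.16, −0.18 and 0.31 for Hspe1. The subunits of the cytosolic chaperonin, which folds actin and tubulin, had pair medians of −0.02, −0.07 and 0.20 over 10 probe sets, and the median over pairs was 0.05, but −0.05 without pair 3. Cct7 had the highest mean on a brightest probe set, 0.10 (SE 0.09), and Cct6a the lowest, −0.11 (SE 0.09). Cct5, the brightest, was tied in pairs 2 and 3 on that probe set, and 1 of the Cct8 probe sets was lower in every pair (−0.68, −0.08 and −0.15).

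None of the 6 probe sets of the heat shock factors, the transcription factors of this response, was higher in every pair, and 2 were lower. Over all probe sets the shares were 6.92% and 9.49%. Hsf1, the main driver of the heat shock response, had 10.03, 9.14 and 10.04 in gabazine cultures, against 10.19, 9.36 and 9.78 in control cultures. Its ratios were −0.16, −0.21 and 0.26. Hsf2, which can form trimers with Hsf1, was lower in every pair on 2 of its 4 probe sets. On the brightest it had 11.73, 12.04 and 13.35 in gabazine cultures, against 12.31, 12.16 and 13.38 in control cultures, with ratios of −0.58, −0.12 and −0.03 (mean −0.24, SE 0.17; limma p 0.189). On the other of these it had −1.03, −0.29 and −0.13, and on the remaining probe sets the mean ratios were 0.08 and −0.07. Hsf4, best known from the lens, was tied in pairs 2 and 3.

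The genes that heat shock factors induce had their highest pair median in pair 3, as did every other list except the activity-regulated genes. A list of stress-inducible genes held 25 measured genes of 31, of which 16 were members and the others included Stip1 and Fkbp4 (Hsp90 cochaperones), Serpinh1 (a collagen chaperone), Hmox1 (heme oxygenase) and Cryab (a small heat shock protein outside the naming rule). Its median ratio was 0.09, beside −0.01 over all genes on their brightest probe sets, and its pair medians were 0.04, −0.03 and 0.31. In pair 3, 13 of the 25 were higher by over 0.25 and 0 were lower by as much, and over all genes the shares were 11.6% and 6.03%. The 78 member genes had 15 higher (19.2%) and 1 lower (1.28%) at that step in pair 3, the 1 lower gene being Dnajb14. In pair 1 the list had 6 higher and 3 lower at that step (12.3% and 22.5% over all genes), and in pair 2 it had 1 higher and 3 lower (7.27% and 9.8% over all genes). The positive median rested on pair 3, since without it the median of the list was −0.0048. Scaling also moved pair 3. The pair 3 median of the 119 members, 0.07 as deposited, was 0.10 after median centring. It was 0.04 after quantile normalization and 0.04 after cyclic loess. Gapdh, the reference transcript, had a ratio of 0.14 in pair 3.

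Over the 3 pairs, 4 genes of the list were higher in every pair (7.79% of all genes were), namely Dnajb4, Hsp90ab1, Dnaja4 and Stip1, and 0 were lower in every pair (10.8%). The first 3 of these are members already counted above. Stip1 had ratios of 0.45, 0.002 and 0.55, so it was nearly tied in pair 2. The limma test called 0 of the 25 after adjustment, and at an unadjusted p under 0.05 it gave 3 higher (2.37% of all genes) and 0 lower (2.84%). Serpinh1 had the highest mean of the list, 0.41 (SE 0.25), from ratios of 0.77, −0.07 and 0.54. Cacybp, a partner of the ubiquitin ligase Siah1, had the lowest, −0.34 (SE 0.24), from −0.81, −0.24 and 0.02. Meningeal and smooth muscle markers also moved between pairs, with pair 3 ratios of −0.54 and 0.69 for their summed levels. The smooth muscle sum was led by Tagln (0.90 in pair 3). The part of these markers in the pair 3 values was not tested.

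**Figure D3:**
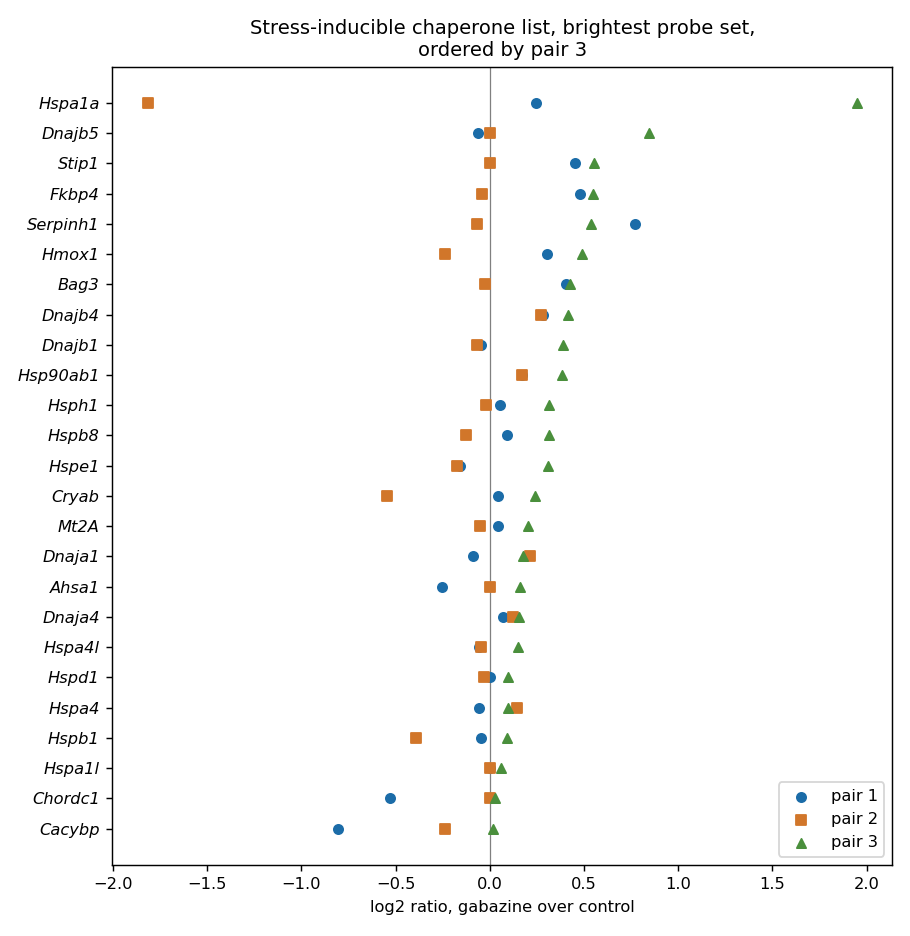
Log2 ratio of gabazine over control (x axis) for the 25 measured stress-inducible genes (y axis, brightest probe set, ordered by pair 3), with a marker for each pair. The pair 3 triangles reach from 0.02 for Cacybp to 1.95 for Hspa1a, and the pair 2 squares sit at or below 0 for most genes.

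The heat shock element was searched as GAANNTTCNNGAA on both strands of the same windows, where 218 genes (0.794%) and 5 member genes held it: Hspd1, Hspe1, Hsph1, Dnaja1 and Cct4. In the first 3 of these it lay before the start, and these sequences are shown for that reason. On their brightest probe sets these 3 genes and Cct4 were highest in pair 3, but Dnaja1 was highest in pair 2 (−0.09, 0.21 and 0.18). Hspa5 and Hsp90ab1, whose windows held no heat shock element, were highest in pair 3 too. A relation of the element to the ratios was not tested. Hspd1 and Hspe1 are divergent neighbours, so their windows share 1 site. It began 65 bases before the start of Hspe1 (chr9:64084242-64084294, plus strand), with a second match to the motif overlapping it downstream, and the Hsph1 match began 36 bases before the start (chr12:10427312-10427364, plus strand). The capitals mark the motif, here in its reverse form.
Hspe1 and Hspd1: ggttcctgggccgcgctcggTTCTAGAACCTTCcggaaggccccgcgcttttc
Hsph1: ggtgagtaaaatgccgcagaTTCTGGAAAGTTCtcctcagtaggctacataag

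For genes of the endoplasmic reticulum, the pair medians followed the order of the stress-inducible list, with lower values. All 28 genes of a list of its chaperones and of the unfolded protein response were measured, 8 of them members, and the median ratio was 0.06, with pair medians of −0.01, −0.07 and 0.17. In pair 3, 10 were higher by over 0.25 and 1 was lower (11.6% and 6.03% of all genes), and without pair 3 the median was −0.02. Hsp90b1 was the only gene of the list that was higher in every pair (7.79% of all genes were). Hspa13, Pdia6 and Edem1 were lower in every pair (10.8% of all genes were). Edem1, which sends misfolded glycoproteins to degradation, had −0.33, −0.15 and −0.26 (mean −0.25, SE 0.05; unadjusted limma p 0.0195). Pdia6, a protein disulfide isomerase, had −0.10, −0.22 and −0.03. The highest mean belonged to Atf4, a transcription factor of the integrated stress response, at 0.34 (SE 0.23) from 0.60, −0.12 and 0.55. Its target Ddit3 (Chop) had 0.52, −0.23 and 0.58. On their brightest probe sets Dnajb9, Dnajb11 and Dnajc10, J-domain proteins of the lumen, had ratios between −0.11 and 0.13.

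Chaperones of mitochondria and synapses and the cochaperones of Hsp70 and Hsp90 had medians of 0.01 to 0.02. The 15 mitochondrial genes had a median of 0.01 (pairs −0.07, −0.08 and 0.14; −0.04 without pair 3), and those outside the naming rule reached from the protease subunit Clpx at −0.25 (SE 0.12) to the protease Lonp1 at 0.14 (SE 0.17). In the list Timm44 of the import motor was the 1 gene higher in every pair (7.79% of all genes were). The 11 measured synaptic chaperones of 13 had a median of 0.01, with Sgta, a cochaperone of tail-anchored proteins, higher in every pair and Dnajb6 lower. Sgtb had the highest mean of those outside the naming rule, 0.36 (SE 0.46), but from ratios of 1.26, −0.19 and 0.00. Of 25 cochaperones, 22 were measured, with a median of 0.02 and pair medians of 0.01, −0.02 and 0.16, and the median was −0.02 without pair 3. In this list 4 genes were higher and 3 lower in every pair (7.79% and 10.8% of all genes). At a step of over 0.25 in pair 3, 8 of the 22 were higher and 1 was lower, beside 11.6% and 6.03% of all genes. Fkbp8, an anchor of Bcl2 on mitochondria, had 12.98, 11.01 and 11.58 in gabazine cultures, against 12.37, 10.81 and 11.03 in control cultures, with a mean of 0.46 (SE 0.13; unadjusted limma p 0.0263). Tsc1, an inhibitor of mTORC1 that also regulates Hsp90, had 10.59, 9.64 and 10.05 in gabazine cultures, against 10.89, 9.86 and 10.38 in control cultures, with a mean of −0.29 (SE 0.03; unadjusted limma p 0.00631).

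The probe sets of a gene disagreed most in pair 1. Over the 30 member genes with several probe sets, the median pair 1 ratio was −0.08 on the brightest probe set and 0.23 on the 41 other probe sets. Of the 41 others, 8 exceeded 1 (19.5%) in pair 1, and of the 30 brightest 0 did, where over all genes 13.6% of 6614 others and 1.17% of 4526 brightest exceeded it. In pairs 2 and 3, 0 of the 41 exceeded 1. These 8 included Hspb8 (2.13), Dnaja4 (2.12), Cct6a (1.98) and Hsp90ab1 (1.94), which with Hspa1a were the 5 members of widest range between pairs, and probe sets of Dnajb5 (1.87 and 1.36), Hspa9 (1.41) and Dnajb1 (1.29). On the rat control genes of the array the pair 1 ratio of the 5′ probe set exceeded that of the 3′ probe set by a median of 0.50, and by 1.70 for beta-actin, where the medians of pairs 2 and 3 were −0.02 and −0.08. The part of this 5′ to 3′ difference in the pair 1 ratios was not tested. The choroid plexus markers (5 of 5 measured) also differed in pair 1, with a ratio of 1.67 for their summed level and of 4.59 for Ttr, and their part was not tested either.

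**Figure D4:**
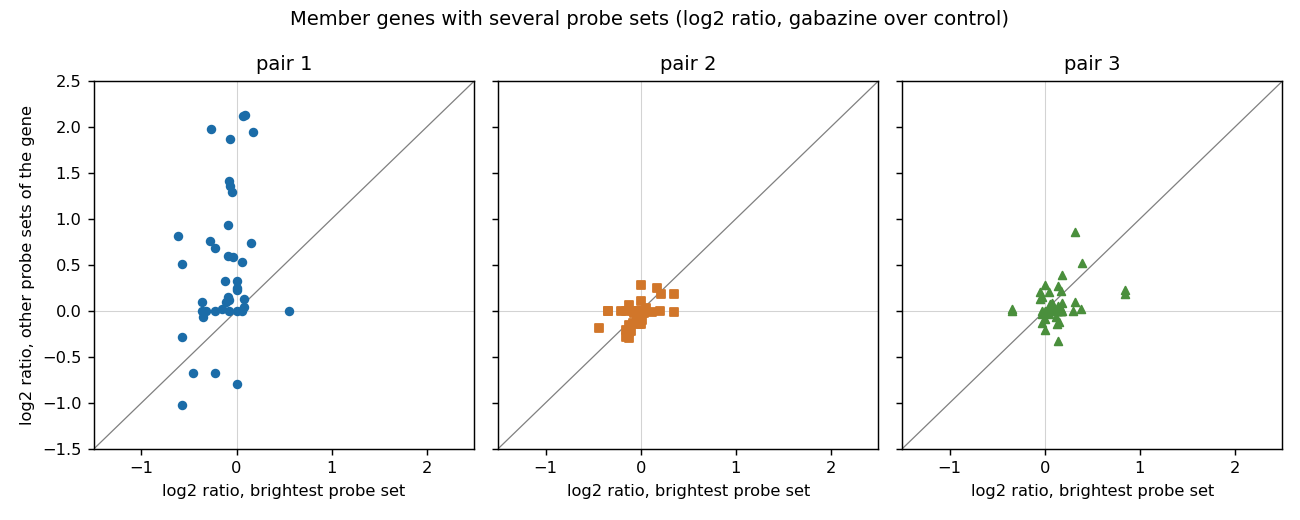
Log2 ratio, gabazine over control, of a gene's brightest probe set (x axis) against each of its other probe sets (y axis) for the 30 member genes with several probe sets, in pairs 1, 2 and 3, with the diagonal of equal ratios. In pair 1, 8 of the 41 points exceed 1 on the y axis while no brightest probe set does, and in pairs 2 and 3 all points lie below 1.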

How the data were processed

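Total RNA of 3 gabazine and 3 control samples was hybridised to 6 arrays. Scanned images were converted by the authors to log2 values with RMA, in a version not given in the sources used here, as is also true of which arrays were normalized together. The 31099 probe sets came without a detection measure. Precision is limited by the number of arrays, and 0 columns of values were left out. The platform annotation gives 20832 probe sets 1 gene symbol, 436 several and 9831 none. Of those with several, 6 included a symbol that met the naming rule and were left out. All 78 member genes matched RefSeq by gene ID.

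Differences between conditions were fitted in R 4.3.3 using lmFit and eBayes of limma 3.58.1, blocked by replica number, and p-values were adjusted across all probe sets (Benjamini-Hochberg, threshold 0.05). The script was tested on simulated data. The series' design pairs the replicas by littermates, and paired arrays deviated together from their group means (correlations 0.794, 0.664 and 0.853). The members and 8 gene lists were chosen with earlier results of these data known. Named were the members changed in the same direction in every pair, the highest, lowest and brightest gene of each subfamily, a set of well-known chaperones, the 5 probe sets of widest range between pairs, and the highest and lowest gene of each list outside the naming rule. Other genes were named for their function or to resolve a small count, after their values were seen. A gene's brightest probe set is that with the highest mean over the 6 arrays. Actb had no probe set of a single symbol, and Gapdh served as the only reference transcript, with ratios of 0.03, 0.02 and 0.14. Alternatives were other scalings, filters, variance models, units and left-out pairs.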

Additional observations from a re-analysis of the deposited data

How the results depend on the processing

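Each result was recomputed under 12 alternatives, and the adjusted limma test called 0 members in every one; without the replicate block it called 14 probe sets over all, 0 of them members. The count of members higher at an unadjusted p under 0.05, 5 in the paired test, was 0 without the replicate block, 1 after median centring, 1 after quantile normalization, 3 after cyclic loess, 1 without the 40% dimmest probe sets, 1 without tied probe sets, 3 on the brightest probe set of each gene and 2 on the mean of its probe sets. With 1 pair left out it ranged from 2 to 6, and the count of those lower ranged from 0 to 3. Members higher in every pair, 8 as deposited, were 17 after median centring, 24 after cyclic loess and 5 on the brightest probe sets, while 14.9%, 17.0% and 7.79% of all features were. Members lower in every pair, 9 as deposited, were 18 after quantile normalization, when 16.8% of all probe sets were. With 1 pair left out these counts ranged from 11 to 35 and from 13 to 31, while 13.5 to 19.6% and 14.6 to 21.5% of all probe sets did. Dnajb4 kept an unadjusted limma p under 0.05 in each alternative except the one without the replicate block (0.547). The leave-one-out range of the limma fits rested on 2 pairs each.

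The Hsp90 median of 0.24 was 0.23 after median centring, 0.19 after quantile normalization, 0.23 after cyclic loess, 0.22 on the brightest probe sets and 0.34 on the mean of probe sets, and 0.19 to 0.28 with 1 pair left out. The Hsp70 and Hsp110 median of 0.00 was 0.048 without the dimmest and 0.0592 without the tied probe sets. That of the small heat shock proteins was 0.0473 and 0.0709 under these filters and −0.0263 after quantile normalization. The Bag median of 0.01 was 0.0363 after quantile normalization, 0.0514 after cyclic loess and −0.0517 without tied probe sets, and −0.0070 to 0.0462 with 1 pair left out. The other medians moved by less than their spread between pairs, although without pair 3 the median of each subfamily and list lay below 0, except those of Hsp90, the J-domain proteins and the activity-regulated genes. Scaling moved the median of all probe sets by at most 0.08 in a pair (median centring, pair 1). How far a dim probe set stood above background was not analysed here. Ratios of tied or dim probe sets carry the least information.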

Other observations

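Of 27 proteasome subunits, which degrade what chaperones cannot refold, 26 were measured, with a median log2 ratio of 0.07 (−0.0010 without pair 3) and pair medians of 0.00, 0.00 and 0.14. In every pair, 3 were higher and 1 was lower, beside 7.79% and 10.8% of all genes, and limma called 0 after adjustment, while its unadjusted p was under 0.05 for 1 higher subunit and 0 lower ones. That subunit was Psmb7, a catalytic subunit of the core particle, with 13.28, 11.89 and 13.09 in gabazine cultures, against 13.00, 11.70 and 12.73 in control cultures, and a mean ratio of 0.28 (SE 0.05, n = 3 pairs). Psmd12, of the regulatory particle, had the lowest mean, −0.43 (SE 0.33), from ratios of −1.09, −0.21 and 0.00.

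Of 15 genes for partners of the cytosolic chaperonin, Tcp1, prefoldin, the phosducin-like proteins and the tubulin cofactors, 14 were measured, with a median of −0.01 and pair medians of −0.12, −0.06 and 0.11. Pdcl was the 1 gene higher in every pair (0.28, 0.09 and 0.14), beside 7.79% of all genes. Tbcd, a tubulin cofactor, was the 1 gene lower in every pair (−0.03, −0.17 and −0.18), beside 10.8% of all genes. Txndc9, a thioredoxin-like modulator of the chaperonin, had the lowest mean, −0.47 (SE 0.42), with most of it in pair 1 (−1.32, −0.10 and 0.00).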
